A study of Mus musculus with 58 samples.

Results

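The comparison described here is that of the forestomach of 5 mice given 20 mg/kg-bw/day of benz(a)anthracene, a polycyclic aromatic hydrocarbon abbreviated BaA, with the forestomach of 4 vehicle controls, chosen by the sample titles and comprising 9 of the 58 arrays of the series. All animals were male Muta™Mouse, a transgenic mutation reporter strain, with an age of 10 weeks in the labels. They were dosed by gavage for 28 days, and tissues were collected 72 h after the last dose. The controls (D0, mice 1 to 4) received olive oil alone, and the exposed group (D1, mice 6 to 10) received BaA dissolved in olive oil. The groups given 40 mg/kg (D2, 5 mice) and 80 mg/kg (D3, 5 mice) entered the same statistical fit and served for comparison. RNA came from random sections of each tissue, the RNA of 1 mouse was hybridised to each array, and a reference RNA from 11 cell lines was hybridised with it in the other colour. All values below are log2 ratios of tissue to reference as deposited after LOWESS normalisation, so that a difference of 1 is a doubling.

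The murine stomach has a non-glandular part, the forestomach, lined by keratinised stratified squamous epithelium, and a glandular part whose mucosa holds acid-secreting parietal cells, pepsinogen-secreting chief cells and mucous cells. The 2 parts meet at the limiting ridge, and fat lies along the outer curvatures. A forestomach sample therefore carries transcripts of the squamous epithelium and of the muscle wall, and may hold glandular mucosa or fat where the piece includes them. Polycyclic aromatic hydrocarbons bind the aryl hydrocarbon receptor (AhR), which with its partner Arnt induces the cytochrome P450 genes Cyp1a1 and Cyp1b1. In these bulk samples, fewer cells of a type and less RNA per cell cannot be told apart.

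The labelled tissue was borne out by its markers on every array. The basal keratin Krt5 lay between 3.21 and 4.06 in D0 and between 2.96 and 3.97 in D1. Lor, a component of the cornified envelope, lay between 6.88 and 7.35 in D0 and between 6.71 and 7.21 in D1. The smooth muscle desmin gene Des lay between 4.74 and 5.75 in D0 and between 4.24 and 5.57 in D1. These ranges overlapped, and none of the 26 squamous or 10 smooth muscle genes passed the test. Of the 26 squamous genes, 24 were lower and 2 higher in D1, with a median difference of -0.18 against -0.02 over all 15108 tested genes. This median was -0.051 without D1 mouse 7 and -0.354 without D0 mouse 2, and it turned positive, to 0.188, with the gland and fat scores described below as covariates. The 2 higher genes were Krt6a, at 1.27 ± 0.76 (SE), and Krt6b, at 0.79 ± 0.41 (SE), keratins of activated squamous epithelium. Over the D2 and D3 arrays their Pearson r with the gland score was 0.84 and 0.77. Within slides 1, 2 and 3, described below, Krt6a differed by 2.93, 1.97 and -0.67, and Krt6b by 1.6, 0.98 and 0.

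No probe was called different between D1 and D0. Of 32342 tested probes, 0 (0%) had both an adjusted p (Benjamini-Hochberg, limma) within 0.05 and a change of 1.5-fold or more, and the smallest adjusted p was 0.931. At an unadjusted p under 0.05 there were 1570 probes, or 4.85% of those tested. The mean difference nevertheless exceeded 1.5-fold for 713 probes that were higher in D1 (2.2% of those tested) and for 186 that were lower (0.575%). The 5 D1 arrays lay wholly above the 4 D0 arrays for 152 probes (0.47%) and wholly below them for 397 (1.23%), whatever the size of the difference. Both conditions together, 1.5-fold and no overlap, were met by 32 higher and 10 lower probes. D0 mouse 2 decided much of this overlap, since without it 739 higher and 451 lower probes met both conditions, still with no call and a smallest adjusted p of 0.429 in limma. Without D1 mouse 10 the counts were 123 and 27, and without D1 mouse 9 they were 30 and 14. Without slide 3, 1 of the 3 slides described further on, they were 792 and 253, and 1 probe was called, for Cldn2 (a claudin of tight junctions), at 1.26 with an adjusted p of 0.0328 in limma. With all arrays Cldn2 differed by 0.86 ± 0.23 (SE) and read -0.06, 0.20, -0.23 and 0.12 in D0 against 1.11, 0.81, 1.07, 1.42 and -0.10 in D1, where mouse 10 lay among the controls. It was above background on 0 of 4 D0 arrays.

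The largest increases were genes of the glandular stomach, and they were set by which mice held such transcripts at all. Atp4b, the beta subunit of the parietal cell proton pump, had log2 ratios of -0.11, 6.38, 0.02 and -0.08 in D0 mice 1 to 4, and of 5.83, 6.56, 5.74, 5.82 and 5.88 in D1 mice 6 to 10. All 5 D1 arrays were high, and among the controls mouse 2 alone was as high as they were. The difference of means was 4.41 ± 1.70 (SE), with an unadjusted p of 0.0183 and an adjusted p of 0.931 in limma. Atp4a, the catalytic subunit of the same pump, read 0.16, 5.92, 0.21 and 0.06 in D0 against 5.61, 6.22, 4.49, 5.56 and 4.85 in D1, the same split of the mice. Cblif, the gastric intrinsic factor that binds vitamin B12, read -0.23, 7.99, 0.62 and -0.29 in D0 and 7.07, 8.35, 6.88, 6.79 and 7.02 in D1. Pgc, encoding the chief cell zymogen progastricsin, read 0.07, 5.01, 0.65 and 0.31 in D0 and 4.45, 5.40, 4.17, 4.17 and 3.91 in D1. Atp4a and Cblif were well above background in Cy5 on 1 of the 4 D0 arrays and on all 5 D1 arrays, so a low D0 value of these genes marks a spot near background and not a measured level.

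Mucous cell genes divided the mice in the same way, and for Gkn2 and Tff1 the low controls lay well above 0. Gkn2, a gastrokine of surface mucous cells, read 1.49, 7.53, 1.61 and 0.84 in D0 and 7.28, 7.98, 6.88, 7.70 and 6.71 in D1. Tff1, the trefoil peptide of the same cells, read 3.29, 5.78, 3.52 and 2.60 in D0 and 6.49, 5.72, 6.21, 6.56 and 5.75 in D1. Its difference of 2.35 ± 0.60 (SE) had the smallest unadjusted p of the gland genes, 0.000992, with an adjusted p of 0.931 in limma. D0 mouse 2 lay above D1 mice 7 and 10 for this gene. Tff2, the trefoil peptide of mucous neck cells, read 0.00, 4.95, 0.24 and -0.02 in D0 and 4.92, 5.21, 4.97, 4.98 and 4.52 in D1. Capn8 was not well above background on any D0 array and was at least 1.66-fold higher in D1, where 3 of the 5 arrays measured it. That bound sets the mean of the D1 signals, after loess and Aquantile scaling of the channels, against, on each D0 array, the higher of its own signal and the lowest signal that counted as above background.

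**Figure D1:**
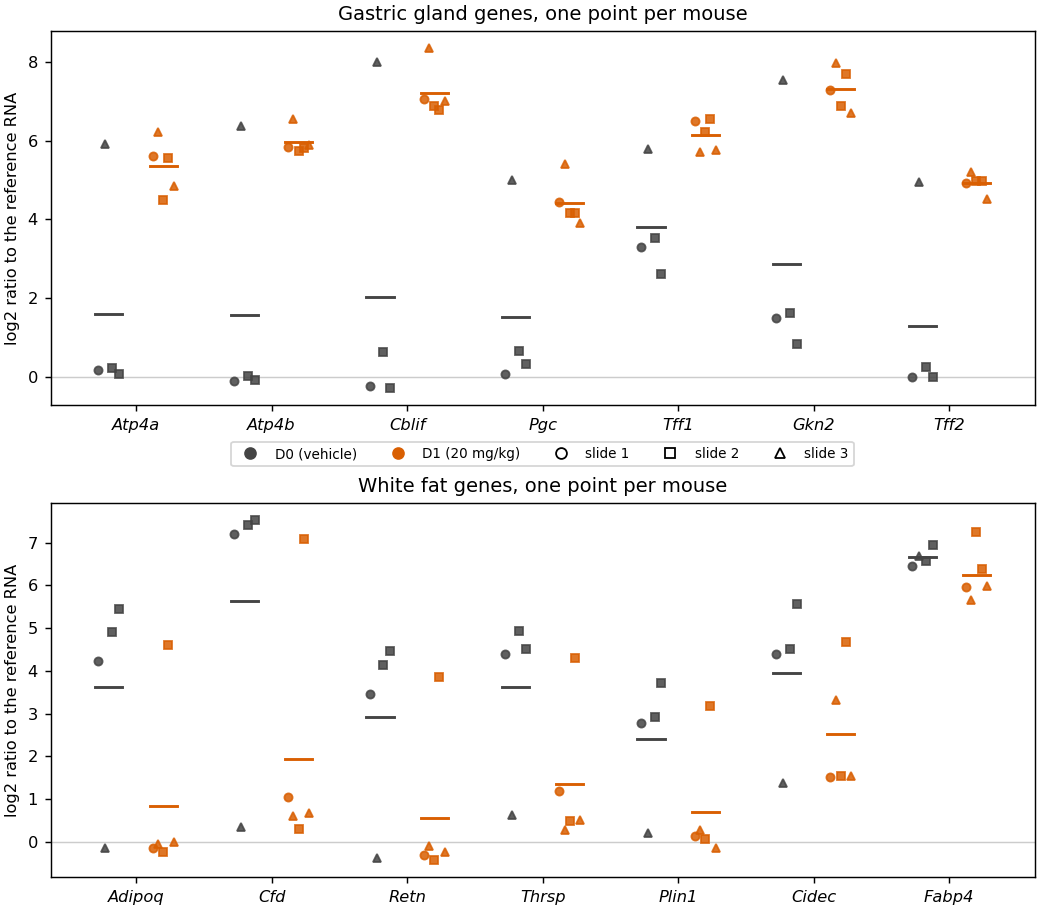
Log2 ratio to the reference RNA (vertical axis) of 7 gastric gland genes (upper panel) and 7 white fat genes (lower panel) in D0 (grey, 4 mice) and D1 (orange, 5 mice); each point is 1 mouse, its shape gives the slide and the bar is the group mean. All 5 D1 points and 1 D0 point, mouse 2, are high for the gland genes, while 3 D0 points and 1 D1 point, mouse 9, are high for Adipoq, Cfd, Retn, Thrsp and Plin1.

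Over the gland lists as a whole (parietal, chief, surface mucous and mucous neck cells), 20 of the 22 tested genes were higher and 2 lower in D1, with a median difference of 2.36. Of the 22, 19 were higher by at least 1.5-fold, against 518 of all 15108 genes. The 2 lower genes were Cym, at -0.17, and Capn9, at -0.06, and for each another probe read higher, by 1.61 and 0.51. Just 1 of the 22, Capn8, was higher and free of overlap, as were 96 of all 15108 genes. When mouse 2 was left out of the controls 19 of the 22 were, and 1541 of all 32342 tested probes. Mouse 2 was the control with high values of the gland genes, so this rise largely follows from leaving it out. The gland score of an array, the mean over the 22 gland genes of the log2 ratio minus its average over the 19 forestomach arrays, was -2.12, 1.95, -1.97 and -2.15 in D0 and 1.35, 2.31, 0.87, 1.52 and 0.68 in D1. D0 mouse 2 thus scored higher than 4 of the 5 exposed mice. Related lists behaved alike, since all 6 genes of simple gastric epithelium and all 6 of gastric endocrine cells were higher in D1, with medians of 3.26 and 0.86. Krt20, a keratin of simple epithelia, differed by 4.30 ± 1.57 (SE), and Sst, encoding somatostatin, by 2.40 ± 1.23 (SE), and neither passed the adjusted threshold.

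The largest decreases were genes of white adipose tissue, with the mice divided nearly the other way round. Adipoq, encoding the adipocyte hormone adiponectin, read 4.24, -0.14, 4.90 and 5.45 in D0 mice 1 to 4 and -0.13, -0.04, -0.24, 4.61 and 0.01 in D1 mice 6 to 10. Mouse 2 alone was low among the controls, and mouse 9 alone was high among the exposed mice. The difference of means was -2.77 ± 1.25 (SE), with an unadjusted p of 0.0403 and an adjusted p of 0.931 in limma. Cfd, encoding adipsin, read 7.21, 0.34, 7.42 and 7.52 in D0 and 1.05, 0.60, 0.30, 7.09 and 0.68 in D1, a mean difference of -3.68 ± 1.86 (SE). Plin1, which coats lipid droplets, read 2.78, 0.20, 2.93 and 3.72 in D0 and 0.14, 0.28, 0.08, 3.19 and -0.13 in D1. Retn, Thrsp and Car3 differed by -2.36, -2.26 and -2.90, with the same mice high apart from a Car3 value of 2.28 in D1 mouse 6.

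All 12 tested white fat genes were lower in D1, 8 of them by at least 1.5-fold (141 of all 15108 genes were), with a median of -1.02. None was free of overlap. The median was -0.615 without D0 mouse 4, -1.68 without D0 mouse 2, -0.441 when only probes above background on every array were kept, and 0.04 on slide 3 alone. The fat score was 1.34, -1.02, 1.51 and 1.95 in D0 and -0.77, -0.90, -0.89, 1.46 and -1.03 in D1. Fabp4, a fatty acid binding protein also present in capillary endothelium, differed by -0.42 ± 0.28 (SE), and Lipe, the hormone-sensitive lipase, by -0.11 ± 0.32 (SE). Of the other lists, all 8 genes of fatty acid synthesis were lower, with Scd1, the stearoyl-CoA desaturase, at -1.74 ± 0.69 (SE). All 8 genes of fibrillar matrix were lower too, with differences of -1.12 to -0.36, the largest for Postn (periostin), at -1.12 ± 0.61 (SE).

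**Figure D2:**
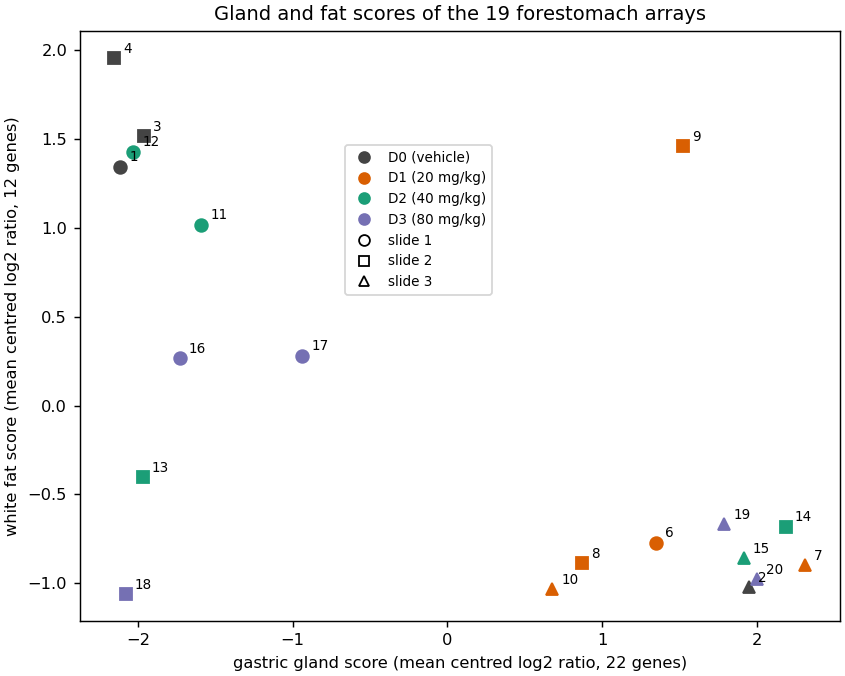
Gland score (horizontal axis, 22 genes) and fat score (vertical axis, 12 genes) of each of the 19 forestomach arrays, in log2 units; colours give the dose, shapes the slide and numbers the mouse. D0 mice 1, 3 and 4 lie at the upper left, and 4 of the 5 D1 mice lie at the lower right together with D0 mouse 2, while D1 mouse 9 is high in both scores.

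The other dose groups also held samples with and without gland transcripts. The gland score was above 0 in 1 of 4 D0, 5 of 5 D1, 2 of 5 D2 and 2 of 5 D3 arrays. The fat score was above 0 in 3 of 4 D0, 1 of 5 D1, 2 of 5 D2 and 2 of 5 D3 arrays. Atp4b read 6.34 in D2 mice 14 and 15, and 6.13 and 6.32 in D3 mice 19 and 20, as high as in D1. D3 mouse 17 was intermediate, and the remaining 5 arrays of these groups lay between 0.01 and 0.44. D2 mouse 13, at -1.97 and -0.40, and D3 mouse 18, at -2.08 and -1.06, scored below 0 for gland and for fat.

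Because the D2 and D3 arrays were not part of the contrast, they were used to ask which of its probes moved with the scores elsewhere. Each probe's log2 ratio was correlated with the gland score over these 10 arrays, which fall into a high and a low cluster, so r mainly reflects that split and is given as a description. The high cluster was mice 14, 15, 19 and 20, and all of them except mouse 14 were on slide 3, described below. No array of the low cluster was on slide 3, so in r the gland score and the slide can hardly be told apart. Of the 713 probes at least 1.5-fold higher in D1, 602 (84.4%) had an r with the gland score of at least 0.7, against 4457 (13.8%) of all tested probes. The median r of the 713 was 0.96. Of the 186 probes at least 1.5-fold lower in D1, 65 (34.9%) had an r with the fat score of at least 0.7, against 1421 (4.39%) of all tested probes. An r with the gland score of at most -0.7 was found for 124 of the 186, against 7090 of all 32342 tested probes. Counted in either direction and with either score, 760 of the 899 probes (84.5%) reached 0.7, as did 12236 (37.8%) of all tested probes. The remaining 139 probes included Cyp1a1, with r of -0.60 for gland and 0.40 for fat. They also included probes that differed on slide 3 and hardly on slides 1 and 2. Within slides 1, 2 and 3, Haus2 differed by -0.03, -0.09 and 3.57, and Togaram1 by -0.23, 0.02 and 3.42.

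**Figure D3:**
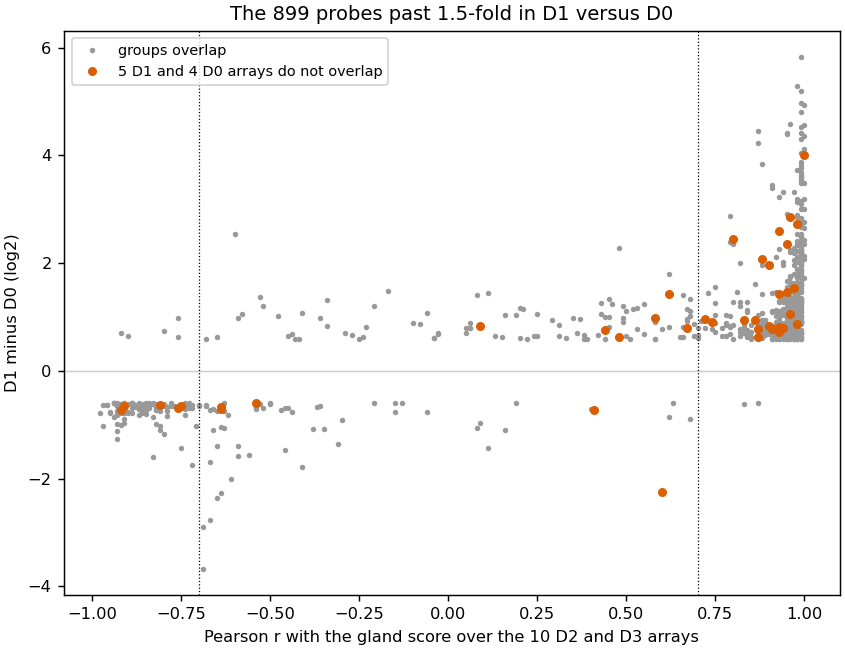
Each point is 1 of the 899 probes that differed by at least 1.5-fold between D1 and D0; the horizontal axis is its Pearson r with the gland score over the 10 D2 and D3 arrays, dotted lines mark -0.7 and 0.7, and the vertical axis is the D1 minus D0 difference (log2). Probes higher in D1 gather at the right edge, where 602 of 713 lie at or beyond 0.7, and orange marks the 42 probes whose D1 and D0 arrays did not overlap.

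The controls themselves differed in the same genes without any exposure. Of the 713 higher probes, 570 (79.9%) were at least 1.5-fold higher in D0 mouse 2 than in the mean of the other 3 controls, against 7.91% of all tested probes. Of the 186 lower probes, 155 (83.3%) were at least 1.5-fold lower in D0 mouse 2, against 10.6% of all. Likewise 88 of the 186 (47.3%) were at least 1.5-fold higher in D1 mouse 9 than in the mean of the other 4 exposed mice, against 2.97% of all. These shares use the same arrays as the contrast and describe its make-up. D0 mouse 2 was also the only control on slide 3, described below, so mouse and slide cannot be told apart in its shares.

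The arrays were hybridised on 3 slides, each of which held D0 and D1 arrays, and the difference was not the same on all of them. On slide 1 (1 D0 and 1 D1 array) the gland score was 3.46 higher in D1, and on slide 2 (2 and 2) it was 3.26 higher. On slide 3 (1 and 2) it was -0.46, since all 6 forestomach arrays of that slide, D0 mouse 2 among them, had a gland score above 0, against 1 of 6 on slide 1 and 3 of 7 on slide 2. The fat score differed by -2.11, -1.45 and 0.06 on slides 1, 2 and 3. The median difference of the 713 higher probes was 1.18 on slide 1, 1.35 on slide 2 and -0.07 on slide 3. That of the 186 lower probes was -0.70, -0.87 and -0.14. A difference of 1.5-fold in the same direction on all 3 slides was found for 43 of the 713 (6.03%) and 5 of the 186 (2.69%). No other tested probe had one, so the shares over all tested probes were 0.133% higher and 0.0155% lower. Slide 3 also had fewer gene spots well above background in Cy5, 38.4% to 42.1% per array against 52.4% to 69.2% on slides 1 and 2, and the part of the slide in these differences was not tested.

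**Figure D4:**
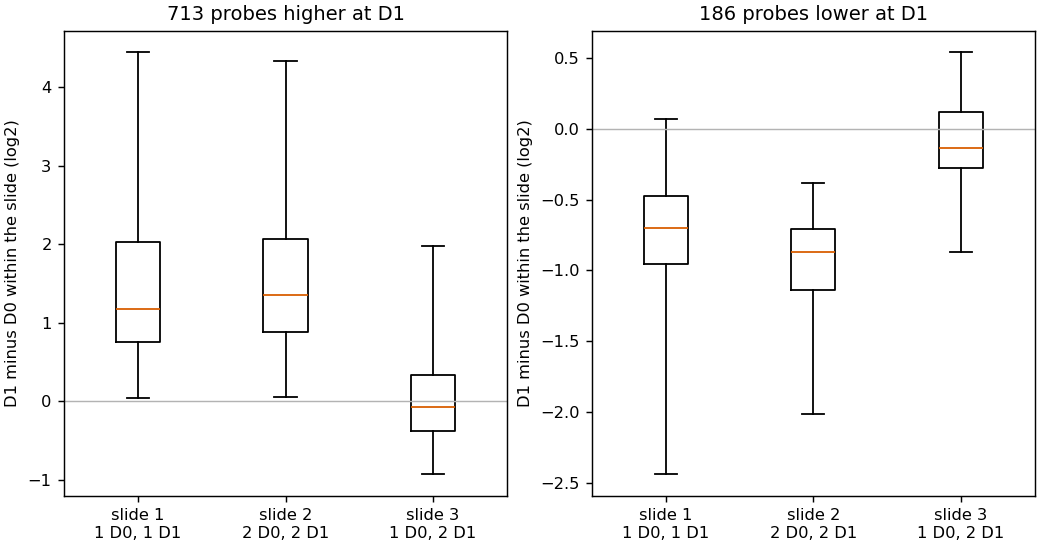
Difference D1 minus D0 (log2, vertical axis) computed within each slide for the 713 probes higher (left) and the 186 lower (right) by 1.5-fold over all arrays; boxes show the quartiles, orange lines the medians and whiskers the 5th and 95th percentiles over probes. On slide 3, whose D0 array was mouse 2, the medians are -0.07 and -0.14, close to 0.

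Lists of other cell types that a section of the stomach could hold gave no call. Medians were lower in D1 for mesothelium (-0.45, 5 of 5 genes lower), smooth muscle (-0.35, 10 of 10), enteric nerves and glia (-0.18, 9 of 9), endothelium (-0.10, 5 of 5), brown fat (-0.12, 2 of 2), skeletal muscle (-0.17, 5 of 8) and macrophages (-0.21, 5 of 6). They were higher for small intestine (0.80, 4 of 4 genes higher), liver (0.27, 6 of 6), exocrine pancreas (0.26, 5 of 8), mast cells (0.18, 4 of 6) and neutrophils (1.15, 4 of 5). Red blood cells, T cells and B cells had medians of 0.07, 0.02 and -0.05. The wall and serosal lists thus leaned lower in D1, the group whose gland lists were higher, and none of their genes passed the test. Single arrays did not all follow the gland score. The mesothelium score was -0.69 in D0 mouse 1, with a gland score of -2.12, and 0.53 in D1 mouse 6, with a gland score of 1.35.

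When the gland and fat scores entered the fit as covariates, the median difference of the gland list was 0.07 and that of the fat list -0.001. The scores were built from these same genes, so their own differences are taken out by construction. Over all tested probes, 797 differed by at least 1.5-fold in that fit, against 899 without the scores, and 140 probes were in both sets with the same direction. No probe was called in that fit either.

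Of the 42 probes free of overlap, 31 had an r of at least 0.7 in size with a score, 26 of the 32 higher (81.2%) and 5 of the 10 lower (50%). Over all tested probes the share was 37.8%, and in this r the gland score and the slide can hardly be told apart. The largest increase among the 42 probes was of a probe without a symbol, at 4.01 with an r of 1.00 for the gland score. The named genes with the next largest differences, Muc4, Dmbt1, Mcpt1, Pigr and Sftpd, were each well above background on 1 of 4 D0 and 5 of 5 D1 arrays, so that their differences are set against D0 spots mostly near background. Muc4, a membrane mucin, read -0.07, 1.04, -0.25 and 0.06 in D0 and 3.25, 1.82, 3.85, 4.37 and 1.93 in D1, with r of 0.96 for the gland score. Dmbt1, a secreted scavenger receptor of epithelia, differed by 2.73 ± 0.85 (SE), and Pigr, which carries immunoglobulin A across epithelia, by 2.45 ± 0.87 (SE). Sftpd, a collectin of innate defence, differed by 2.35 ± 0.77 (SE). D0 mouse 2 was the highest control for each of these genes, and its Pigr value of 0.65 was next to that of D1 mouse 7, at 0.65, and the r with the gland score was between 0.80 and 0.98.

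Mcpt1, a protease of mucosal mast cells, was higher in D1 on every slide. It read 0.01, 1.01, -0.05 and -0.06 in D0 and 1.25, 2.35, 3.41, 3.88 and 3.17 in D1, and the difference within slides 1, 2 and 3 was 1.25, 3.70 and 1.75. Over all arrays it was 2.59 ± 0.82 (SE), with an unadjusted p of 0.00581 and an adjusted p of 0.931 in limma. It was measured above background on 1 of 4 D0 and 5 of 5 D1 arrays, and in D2 and D3 the gland-rich mice 14, 15, 19 and 20 alone exceeded 1, at 4.04, 2.45, 2.65 and 1.81. The 6 mast cell markers, of which Cma1 and Mcpt4 mark the connective tissue type, differed by at most 0.24 in size. Aqp5, a water channel of glandular epithelia, read -1.19, -0.45, -1.08 and -0.97 in D0 and -0.36, -0.30, 0.03, 0.27 and 2.82 in D1, where mouse 10 stood far above the rest. This probe differed by 0.83, 1.18 and 1.71 within slides 1, 2 and 3. Another Aqp5 probe, whose groups overlapped, differed by 2.22, and by 2.82, 3.04 and 0.26 within these slides. Its r with the gland score was 0.98. Fam83e, Ms4a8a and S100a7l2 differed by 1.53, 1.47 and 1.97, with r of 0.90 or more for the gland score.

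Of the 42 probes, 11 stayed under the limit of 0.7 with both scores. For all of these except S100a9, r with the gland score was still 0.41 to 0.67 in size. S100a9, the calprotectin subunit made by neutrophils and by stressed squamous keratinocytes, read 3.80, 4.53, 4.49 and 4.32 in D0 and 5.51, 4.88, 5.29, 5.08 and 4.85 in D1. All 5 exposed mice lay above all controls, by 0.84 ± 0.21 (SE), with an unadjusted p of 0.00098 and an adjusted p of 0.931 in limma. Its r was 0.09 for gland and 0.29 for fat, and the within-slide differences were 1.70, 0.78 and 0.34. D2 and D3 arrays lay at 4.68 to 5.64, so D1 differed from them by 0.16 ± 0.20 and 0.00 ± 0.20 (SE). Its partner S100a8 differed by 1.24 ± 0.50 (SE), with D0 mouse 2, at -1.35, inside the D1 range. Of the other neutrophil genes, Mpo differed by -0.14 and Ltf, an epithelial secretory product as well, by 3.40 with an r of 0.91 for the gland score. Camp, the cathelicidin, differed by 1.15 ± 0.81 (SE), which was also the median of the 5 neutrophil genes, and mouse 10 alone was high, at 5.62 against -0.22 to 0.41 in the other exposed mice. Duoxa2, the maturation factor of the dual oxidase Duox2, was above background on 0 of 4 D0 and 5 of 5 D1 arrays, with log2 ratios of 1.08 to 2.27 in D1. Its r with the gland score was 0.62. In D2 and D3 it was highest in the gland-rich mice 14, 15, 19 and 20, at 3.52, 1.05, 0.69 and 0.39. Cx3cr1, the fractalkine receptor of monocytes and macrophages, read 1.46 to 1.91 in D0 and 2.17 to 2.94 in D1, a difference of 0.75 ± 0.24 (SE). Cd177, a neutrophil surface protein, was above background on 0 of 4 D0 and 2 of 5 D1 arrays and was at least 1.62-fold higher by the bound described for Capn8. Ripply3, a transcriptional repressor, differed by 0.62 ± 0.21 (SE).

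The decreases free of overlap were small apart from Rnu3b1, a U3 small nucleolar RNA, which read 2.37, 2.86, 2.06 and 2.31 in D0 and -0.79, 0.51, 2.04, -0.22 and -0.78 in D1. D1 mouse 8 lay next to the lowest control, and the D2 and D3 arrays ranged from -2.15 to 3.00. Fas, the death receptor, differed by -0.60 ± 0.15 (SE), with an unadjusted p of 0.000624 and an adjusted p of 0.931 in limma. It read 0.56, -0.01, 0.36 and 0.34 in D0 and -0.38, -0.53, -0.45, -0.02 and -0.08 in D1, so that control mouse 2 and the highest D1 array, mouse 9, were nearly equal. Mfap4, Fbln2 and Matn2, of the extracellular matrix, differed by -0.71, -0.69 and -0.63, and Fbln2 and Matn2 had r of -0.76 and -0.81 for the gland score. Fxyd2, Ctnnal1, Prl2c1, Dst and 4930523C07Rik differed by -0.72, -0.67, -0.66, -0.56 and -0.73.

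The 10 genes with the smallest unadjusted p differed by little. Gpihbp1, which anchors lipoprotein lipase on capillary endothelium, led the ranking at -0.50 ± 0.10 (SE), with an unadjusted p of 0.000147 and an adjusted p of 0.931 in limma. It read 1.37, 1.51, 1.57 and 1.44 in D0 and 1.05, 1.11, 0.73, 1.27 and 0.71 in D1, without overlap and with r of 0.02 for gland and 0.27 for fat. Esyt2, Zfp874b, Cacnb3, Ice1, Chd9 and Chd2 had differences of -0.40 to -0.28, and Tbx3, a T-box transcription factor, of -0.67. Fas, given above, was another of the 10. Jakmip1 alone of the 10 was higher in D1, by 0.52 ± 0.13 (SE).

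Cyp1a1, which oxidises polycyclic aromatic hydrocarbons, had the largest difference of the AhR battery, the genes best known to be induced through this receptor. Cyp1a1 read 0.75, 0.06, 0.52 and 1.13 in D0 and 6.88, 2.64, 4.17, 1.53 and 0.54 in D1 mice 6 to 10. Of the exposed mice 4 lay above every control, and mouse 10 lay within the control range. The mean difference was 2.54 ± 1.08 (SE), or 5.82-fold, with an unadjusted p of 0.031 and an adjusted p of 0.931 in limma. Without mouse 6 it was 1.61, with an unadjusted p of 0.102 in limma. Within slides 1, 2 and 3 it was 6.14, 2.03 and 1.54, and with the gland and fat scores as covariates it was 3.27 ± 1.16 (SE). D2 mice 11 to 15 read 4.90, 0.36, 3.61, 0.44 and 0.64, and D3 mice 16 to 20 read 2.20, 1.42, 1.22, 0.16 and 0.25. D1 differed from D2 by 1.16 ± 1.02 and from D3 by 2.10 ± 1.02 (SE), neither of which passed. D1 mouse 6, the highest for Cyp1a1, also stood apart for liver genes, with Alb (albumin) at 3.37 against 0.13 to 0.41 in the other exposed mice. D1 mouse 8 had Cyp1a1 at 4.17 with Alb at 0.35, and D0 mouse 2 had Alb at 2.07 with Cyp1a1 at 0.06. In D2, mouse 11 was high for both, with Alb at 3.90, while mouse 15 had Alb at 2.49 with Cyp1a1 at 0.64. The part of liver transcripts in the Cyp1a1 value of mouse 6 was not tested.

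Of the remaining battery genes only Nqo1 reached 1.5-fold, and none passed the test. Cyp1b1 read -0.18, -0.22, -0.46 and -0.03 in D0 and 0.89, 0.12, 0.64, -0.76 and -0.16 in D1, highest in the 2 mice with the most Cyp1a1, and differed by 0.36 ± 0.27 (SE). Nqo1, a quinone reductase, differed by 0.59 ± 0.33 (SE) with an r of 0.85 for the gland score, and D0 mouse 2, at 2.97, lay above 4 of the 5 exposed mice. Ahrr, the receptor's repressor, Tiparp, a poly(ADP-ribose) polymerase induced by the receptor, Aldh3a1 and Ugt1a6a differed by 0.02, 0.05, 0.16 and -0.23. Cyp1a2 was above background on too few arrays to be tested. Over the 7 tested genes of the list 6 were higher and 1 lower, with a median of 0.16. Of the 4 tested genes of the receptor and its partners, none differed by 1.5-fold.

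**Figure D5:**
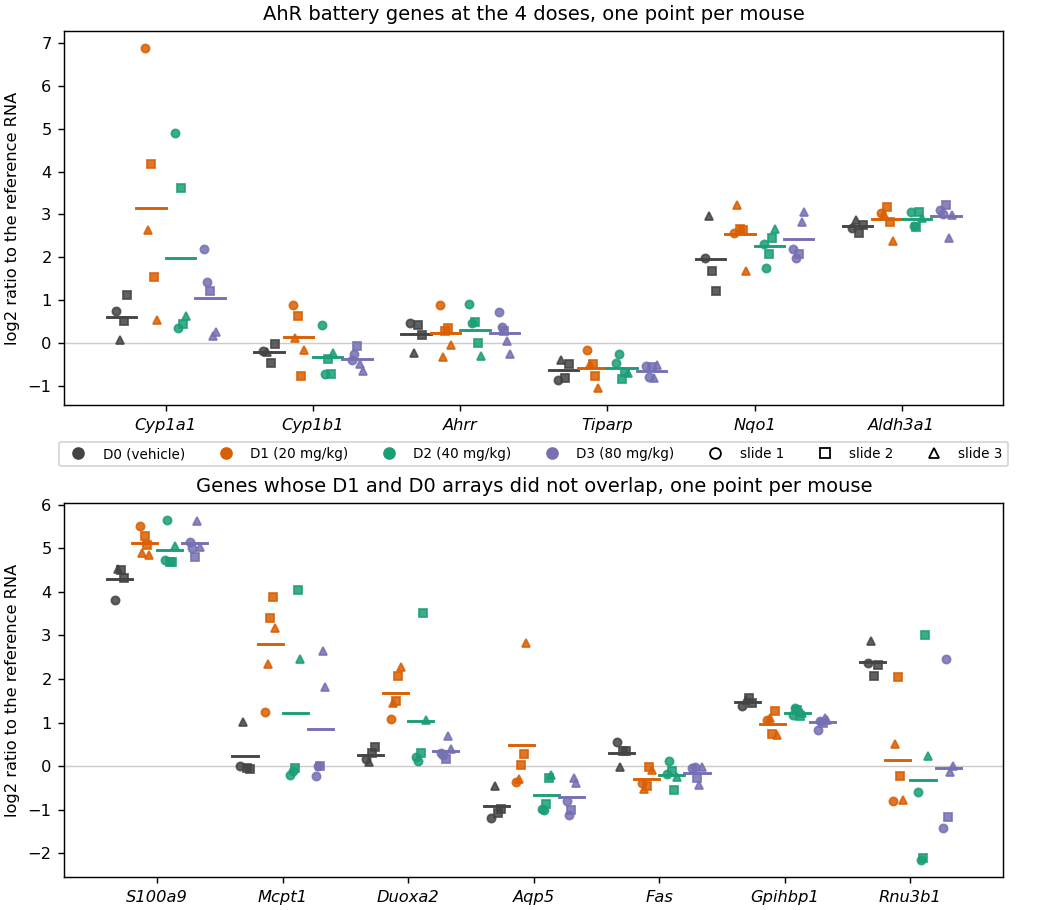
Log2 ratio to the reference RNA (vertical axis) of 6 AhR battery genes (upper panel) and of 7 genes whose D1 and D0 arrays did not overlap (lower panel) in D0 (4 mice), D1, D2 and D3 (5 mice each); each point is 1 mouse, its shape gives the slide and the bar is the group mean. Cyp1a1 ranges from 0.54 to 6.88 in D1, and the D2 and D3 groups also hold high and low mice.

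The promoters of 3 battery genes are shown because they hold the core letters of the AhR response element, GCGTG or its complement CACGC, while Cyp1a1 alone of the 3 had a large difference. Each is the 250 bases before the annotated start from RefSeq on GRCm38.p6, in gene orientation, with matches in capitals. Cyp1a1 lies at chr9:57697363-57697612 (plus strand), Cyp1b1 at chr17:79715062-79715311 (minus strand) and Ahrr at chr13:74292332-74292581 (minus strand).
Cyp1a1: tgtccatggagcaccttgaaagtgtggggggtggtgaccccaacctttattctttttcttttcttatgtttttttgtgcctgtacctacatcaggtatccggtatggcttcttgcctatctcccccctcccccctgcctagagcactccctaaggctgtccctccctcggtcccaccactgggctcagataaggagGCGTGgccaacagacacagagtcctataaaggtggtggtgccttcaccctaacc
Cyp1b1: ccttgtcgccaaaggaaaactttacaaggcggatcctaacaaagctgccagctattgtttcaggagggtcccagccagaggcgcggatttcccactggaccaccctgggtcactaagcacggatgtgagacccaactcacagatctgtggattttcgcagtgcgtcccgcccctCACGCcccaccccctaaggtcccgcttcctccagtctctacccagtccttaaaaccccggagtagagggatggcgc
Ahrr: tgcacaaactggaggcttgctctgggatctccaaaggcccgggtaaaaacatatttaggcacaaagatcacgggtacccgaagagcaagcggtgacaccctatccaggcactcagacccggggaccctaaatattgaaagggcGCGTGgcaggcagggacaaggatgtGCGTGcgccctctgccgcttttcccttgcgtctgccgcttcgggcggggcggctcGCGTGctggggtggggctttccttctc
Cyp1a1 and Cyp1b1 each hold 1 match and Ahrr holds 3. A match is held by 4 of the 7 battery promoters searched and by 7624 of 27025 promoters (28.2%) in windows of the same length. A match is a description of the letters, and the response elements best known for Cyp1a1 lie further upstream than this window.

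The lists of other responses to a genotoxic hydrocarbon gave no call. The 15 interferon-stimulated genes had a median of 0.07, the 6 inflammatory mediators 0.15, and the clock lists 0.12 and -0.18. Of 19 tested p53 targets 9 were higher and 10 lower, with a median of -0.03. Cdkn1a, the cell cycle inhibitor p21, differed by 0.06 ± 0.10 (SE) and Mdm2, the p53 ubiquitin ligase, by -0.04 ± 0.12 (SE). The largest in size was Pmaip1, at 1.32 ± 0.71 (SE), which had an r of 0.98 for the gland score and read -0.93 in D0 mouse 2 against -3.39 to -3.10 in the other controls. The same held for the phase II genes Gsta2 and Gsta1, at 1.01 and 0.70 with r of 0.99 and 0.97, and for Gsr of the Nrf2 list, at 1.00 with r of 0.97. The rest of the Nrf2 list, among them Hmox1 at -0.27 and Gclc at 0.42, stayed under 1.5-fold. All 13 proliferation genes were higher, by 0.08 to 0.39, and none passed the test. Their score overlapped between the groups, at -0.12 to 0.04 in D0 and 0.02 to 0.41 in D1. In D2 and D3 it was 0.18 to 0.21 in the gland-rich mice 14, 15, 19 and 20. It was 0.35 in D2 mouse 13 and -0.57 to -0.23 in the other mice of these groups. Of 14 heat shock genes 13 were lower, with a median of -0.31, and Hspa1a differed by -1.03 ± 0.49 (SE) with an r of -0.97 for the gland score.

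Compared directly with the other doses, D1 had few calls. The mean difference passed 1.5-fold for 371 higher and 69 lower probes against D2, and for 468 and 65 against D3. At an unadjusted p under 0.05 in limma there were 570 probes against D2 and 1319 against D3, of 32342 tested. Against D2 there were 2 calls and against D3 there were 2 calls, each 0.00618% of the tested probes. Pcp2, best known from Purkinje cells, differed between D1 and D2 by -0.73 ± 0.10 (SE), with an adjusted p of 0.0209 in limma. It lay at 0.77 to 1.15 in D2 and at 0.01 to 0.50 in D1, so the groups did not overlap, and D0 was like D1. Krt31, a hair keratin, differed between D1 and D3 by -1.29 ± 0.13 (SE), with an adjusted p of 0.000495 in limma, at 1.99 to 2.26 in D3 against 0.42 to 1.15 in D1. The other call in each contrast was a probe without a symbol, at 2.09 ± 0.28 (SE) against D2 and -0.95 ± 0.10 (SE) against D3. Both calls against D2 were lost with the processed signals of the scanner software and without D1 mouse 6, 7 or 10, and both calls against D3 were lost when the raw ratios were centred on their median. None of the gland, fat or AhR battery genes was called against either dose.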

How the data were processed

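Tissue RNA (Cy5) and universal mouse reference RNA (Cy3) were hybridised to 2-colour Agilent arrays with no dye swap, so that dye bias of a probe is shared by the groups. The authors scanned the slides, read intensity with Feature Extraction 10.7.3.1, took median signals without background correction and normalised by LOWESS in R. The deposited log2 ratios of tissue to reference were used here. The deposited intensity values of each spot served to recompute the ratios (r of 0.9947 to 0.9977 with the deposited values, per array) and to flag spots well above background. No spot was saturated, and the number of arrays limits the precision. Of 55681 probes, 26413 were matched to 20018 symbols of RefSeq (GRCm38.p6), and 29268 had none or several. The scanner grid names another build, so no probe coordinates are given.

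A model with 1 mean per dose was fitted to all 19 forestomach arrays in limma 3.58.1 (R 4.3.3), in place of the authors' MAANOVA, which was not used here. Tests covered the 32342 probes whose Cy5 spot exceeded background on 4 or more of them, with Benjamini-Hochberg adjustment over all of them, and a call needed an adjusted p of at most 0.05 and a 1.5-fold difference. For a list gene with several tested probes the brightest in Cy5 was used, and among the largest differences the probe with the largest. Probes of Amy2a5, Capn9, Cym and Ddx58 disagreed in direction. Groups came from the sample titles, and the forestomach of mouse 5 was not analysed here. Replicates were separate mice.

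The comparison and the 24 cell type and 13 response lists were chosen with earlier results of these data known. The genes to name were the tested genes of the gland, white fat and AhR battery lists (of which a selection is described), the 10 largest increases and the 10 largest decreases free of overlap, and the 10 smallest unadjusted p. Other genes named were list members or chosen after their values were seen. Alternatives covered normalisation, background, filters, slide, weights, covariates and left-out arrays. The fit was tested on simulated data.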

Additional observations from a re-analysis of the deposited data

Results flagged for a closer look

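Over list scores and named genes, the farthest array of each group was compared with its nearest neighbour by Dixon's criterion. Of 150 tests 23 exceeded the limit, which a single test passes by chance about 1 time in 20. The tests were not independent, since the joined gland score and its parts were tested separately. Many of the genes had also been picked from these same arrays. The 23 of 150 therefore do not measure an excess over chance. Scores are mean log2 ratios of a list relative to the 19 forestomach arrays.

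D0 mouse 2 stood apart from the other controls in the gland score (1.95) and in its parts, with parietal cells at 2.03, chief cells at 2.83, surface mucous cells at 1.06 and mucous neck cells at 1.67. It also stood apart for gastric endocrine cells (0.90), simple gastric epithelium (1.90), exocrine pancreas (0.94), liver (0.72), small intestine (0.22), inflammatory mediators (0.37) and, on the low side, fatty acid synthesis (-0.29). Mouse 2 was the only control on slide 3. For inflammatory mediators all arrays of slide 3, at every dose, scored 0.21 to 0.59, and those of slides 1 and 2 scored -0.32 to 0.01. Among genes it stood apart for Dmbt1 (2.79), Mcpt1 (1.01), Pigr (0.65) and Fxyd2 (-0.69).

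D1 mouse 9 stood apart from the other exposed mice in the white fat score (1.46) and for 4930523C07Rik (0.22). D1 mouse 6 stood apart in the liver score (1.73). D1 mouse 10 stood apart in the small intestine score (-0.15), the phase II conjugation score (-0.22), the Aqp5 probe free of overlap (2.82) and Prl2c1 (-1.90).

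Between doses, D1 differed from D2 in Pcp2 (-0.73) and in a probe without a symbol (2.09), and from D3 in Krt31 (-1.29) and in another probe without a symbol (-0.95). These were the calls of limma over all tested probes.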

How the results depend on the processing

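No probe was called between D1 and D0 under the alternatives run, except that 1 was called without slide 3, an alternative added after seeing the data. Without slide 3 there were 1045 probes past 1.5-fold free of overlap and 2893 with an unadjusted p under 0.05, against 42 and 1570. The 42 became 189 with the processed signals of Feature Extraction, 27 after normexp and 19 with a filter on every array, and 43 to 1190 when 1 mouse was left out, the highest without D0 mouse 2. The 1570 became 4345 with array weights, 4064 with both scores and 3422 with the gland score as covariates, 415 after median centring, 2470 without a filter, 997 with the filter on every array, and 988 to 3324 when 1 mouse was left out. The 2 calls against D2 became 0 with the processed signals, 1 with both scores, with the gland score, after median centring and with the filter on every array, and 0 to 2 when 1 mouse was left out. The 2 calls against D3 became 5 with array weights and 0 after median centring. The median of the gland list, 2.36, became 0.94 with the fat score, 0.067 with both scores and 0.12 with the gland score as covariates, -0.34 on slide 3 alone, and 2.01 to 3.42 when 1 mouse was left out. The median of the white fat list, -1.02, was -1.68 to -0.615 and that of the squamous list, -0.178, was -0.354 to -0.051 when 1 mouse was left out. The squamous median was 0.165 with the gland score, 0.057 with the fat score and 0.188 with both as covariates. Of probes past 2-fold, 344 of 386 followed a score. Causes were not tested, but the covariates hold the list genes themselves.

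Of 1500 values of named genes under alternatives, 55 changed sign. With both scores as covariates these were Adrb3 0.20, Aqp4 -0.64, Atp4a -0.04, Bhlha15 -0.91, Cfd 0.45, Gkn1 -0.73, Kcne2 -1.06, Kcnj15 -0.79, Kcnj16 -0.53, Lep 0.01, Lipe 0.53, Nqo1 -0.01, Pga5 -0.38, Plin1 0.02, Retn 0.13, Slc26a7 -0.29 and Ugt1a6a 0.14. With the gland score they were Aqp4 -0.61, Bhlha15 -0.84, Fam83e -0.01, Gkn1 -0.79, Kcne2 -1.05, Kcnj15 -0.89, Kcnj16 -0.49, Lipe 0.46, Pga5 -0.44, Slc26a7 -0.28 and Ugt1a6a 0.18. With the fat score they were Adrb3 0.16, Aqp4 -0.14, Cfd 0.22, Cidec 0.11, Kcnj15 -0.05, Lep 0.03, Lipe 0.33, Retn 0.06 and Slc26a7 -0.16. Ahrr was -0.14 with the processed signals, Cym 0.38 with array weights, Lipe 0.02 with slide as a block, and Capn9 0.03 and Cym 0.53 without slide 3. When 1 mouse was left out, Ahrr ranged from -0.15 to 0.16, Capn9 from -0.20 to 0.18, Cym from -0.44 to 0.60, Lipe from -0.45 to 0.05, Slc26a7 from -0.08 to 0.14 and Tiparp from -0.06 to 0.16.

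No paired analysis was possible because the groups compared share no mouse number. With slide as a block, 0 probes were called between D1 and D0, 46 were past 1.5-fold and free of overlap, 2274 had an unadjusted p under 0.05, and the medians of the gland, white fat and squamous lists were 2.03, -0.958 and -0.11.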

Other observations

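D1 mouse 10 differed from the other exposed mice in genes outside the comparison above. Its score over 15 interferon-stimulated genes was 1.53, against -0.36 to 0.25 in the other D1 mice. Mouse 10 was on slide 3, whose other forestomach arrays scored -0.01 to 0.43. The interferon score was not among those past Dixon's limit. Isg15, a ubiquitin-like protein induced by interferon, read 0.33 in mouse 10 and -3.12 to -1.99 in the others, and Oas2, an antiviral synthetase, read 0.38 against -3.15 to -1.95. In the same mouse Ltf read 1.07, against 5.01 to 5.93 in the others.

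D1 mouse 6 had the highest values among exposed mice for liver transcripts, with Fgb (fibrinogen beta chain) at 3.28 against -0.22 to 0.28.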
